A study of Mus musculus with 39 samples.

Results

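The miR-26 family of the mouse comprises 3 hairpins, Mir26a-1, Mir26a-2 and Mir26b, which lie in introns of the 3 Ctdsp genes. Both arms of each hairpin, read on the sense strand, were taken by the name of the row, which gave 6 of the 1684 features listed in the deposited counts. The study sequenced cardiac small RNA of FVB/NJ mice, an inbred strain, in 39 libraries. Males gave 23 of them, 2 at 4 weeks of age, 3 at 5 weeks, 12 at 6 weeks, 1 at 7 weeks, 4 at 8 weeks and 1 at 16 weeks. Females gave 16, with 6 at 6 weeks, 3 at 7 weeks, 2 at 8 weeks and 5 at 9 weeks. All groups were wild type by the labels, which name no treatment, and differed in sex and age. The tissue label names the whole heart, whereas the extraction protocol names the ventricular apex. Whether 2 libraries could share an animal is not stated, and the p-values below describe only the variation among libraries, which may be technical.

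A miRNA hairpin is cut into a duplex of a 5p and a 3p arm, and usually 1 arm is kept in the silencing complex while the other is degraded. Bases 2 to 8 of the kept arm, the seed, direct it to matching sites in messenger RNAs. The Ctdsp genes encode small phosphatases that act on the C-terminal domain of RNA polymerase II and on other nuclear proteins. In mouse muscle precursors miR-26a represses Ezh2, which encodes a histone methyltransferase, and in rodent heart muscle cells it has been reported to repress the transcription factor gene Gata4 and to restrain hypertrophic growth.

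The mature sequences are shown because they decide which counts can be told apart. They are the RefSeq sequences for GRCm38.p6, matched by exact coordinates among the entries of these genes for 6 of 6 arms, with the seed in capitals.
miR-26a-5p (Mir26a-1 and Mir26a-2): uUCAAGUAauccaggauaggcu
miR-26b-5p: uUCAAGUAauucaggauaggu
miR-26a-1-3p: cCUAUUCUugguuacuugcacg
miR-26a-2-3p: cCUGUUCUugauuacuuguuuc
miR-26b-3p: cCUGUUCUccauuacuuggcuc
The 5p arms of Mir26a-1 and Mir26a-2 were identical over 22 bases. Counted from the 5′ end, miR-26b-5p differed from them by C11U and C21U over its 21 bases, both outside the seed. The seed UCAAGUA was found in 3 of the 1738 mature entries of the RefSeq table, which are the 5p arms of this family. The 3p arms of Mir26a-1 and Mir26a-2 differed at 6 of 22 positions. One of these, A4G, lies in the seed, so that miR-26a-2-3p shares CUGUUCU with miR-26b-3p and miR-26a-1-3p does not.

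The hairpins are shown with both mature arms in capitals, since the loops and flanks differ where the 5p arms do not.
Mir26a-1: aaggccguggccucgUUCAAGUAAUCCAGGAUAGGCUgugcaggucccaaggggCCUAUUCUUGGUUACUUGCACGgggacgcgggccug
Mir26a-2: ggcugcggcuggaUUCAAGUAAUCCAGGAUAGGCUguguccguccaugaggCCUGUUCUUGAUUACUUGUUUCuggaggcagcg
Mir26b: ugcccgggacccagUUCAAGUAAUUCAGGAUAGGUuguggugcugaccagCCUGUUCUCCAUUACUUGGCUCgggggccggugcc
Mir26a-1 lies at chr9:119031796-119031885 on the plus strand of GRCm38, in intron 5 of the 8-exon transcript of Ctdspl. Mir26a-2 lies at chr10:126995530-126995613 on the plus strand, in intron 5 of the 8-exon transcript of Ctdsp2. Mir26b lies at chr1:74394310-74394394 on the plus strand, in intron 4 of the 7-exon transcript of Ctdsp1. Each hairpin is on the strand of its host gene. How the authors assigned a read that matches both Mir26a loci, and whether a read with mismatches could pass between miR-26a-5p and miR-26b-5p, is not given in the sources used here. Counts of the Mir26a-1 and Mir26a-2 5p arms are therefore uncertain as levels of either locus, and their sum is given beside them.

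Libraries held 1788245 to 14563754 counts (median 8410768), and the second lowest held 3970178. One arm exceeded 40% of all counts in 4 libraries. These were replicates 2 and 6 of the 6-week males and replicate 1 of the 6-week females, with 43.0 to 43.6% miR-143-3p, and replicate 2 of the 7-week females, with 46.4% in another arm. Replicate 2 of the 8-week females had the lowest total. These 5 libraries stood apart from the rest, and several of the results below are given with and without them. The 13 arms of the heart muscle marker miRNAs (miR-1a, miR-133a, miR-133b, miR-208a, miR-208b, miR-499) took 5.60 to 16.2% of counts, and none was at 0 in all libraries. Libraries also fell into 7 sets by the division of counts between copies of 15 other identical mature sequences, such as miR-16-5p from its 2 loci. The sets held 4 to 8 libraries each, are not given by the labels, and are used below as a possible technical grouping.

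The family was abundant through miR-26a-5p, and the 5p arms carried nearly all of its counts. Levels are given as CPM, the count of an arm scaled by the total of its library, and the arms are 21 or 22 bases long, so reads of different arms can be set side by side per length, although ligation favours some sequences. miR-26a-5p from both loci averaged 33434 ± 5145 CPM (SD, n = 39), rank 9 of 1683 features when its rows are summed. The rows of other sequences that are divided between loci were not summed for this rank. The Mir26a-2 row held 26298 ± 4415 CPM and the Mir26a-1 row 7136 ± 1870 CPM, ranks 10 and 24 of 1684. miR-26b-5p averaged 3655 ± 1329 CPM, at rank 35. Together the 6 arms made up 2.30 to 4.62% of all counts, with a median of 3.88%.

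The 3p arms were the minor product of all 3 hairpins. miR-26b-3p averaged 21.0 ± 5.95 CPM, miR-26a-2-3p 3.07 ± 1.28 CPM and miR-26a-1-3p 0.372 ± 0.292 CPM (SD, n = 39). The order of the 3p arms was not that of the 5p arms: miR-26b had the least abundant 5p and the most abundant 3p arm. The 3p arm made up a median of 0.510% of miR-26b counts (0.370 to 1.67%) and 0.0102% of miR-26a counts (0.00251 to 0.0170%). These ranges did not overlap, so the arms of Mir26b were less unequal in each of the 39 libraries. miR-26a-1-3p had 0 to 11 counts per library and was at 0 in 5 libraries, where a count of 0 allows up to 0.316 to 1.68 CPM (3 counts). miR-26a-2-3p had 1 to 79 counts. Neither reached 5 CPM in 5 libraries, so 4 of the 6 arms passed the filter and were tested.

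miR-26a-5p was the steadiest of the family. Summed over its loci it ran from 21064 CPM in replicate 2 of the 7-week females to 40496 CPM in replicate 2 of the 8-week males, a ratio of 1.92, with a coefficient of variation (CV) of 15.4%. Without the 5 libraries that stood apart the range was 28035 to 40496 CPM and the CV 8.73% (n = 34). miR-26b-5p varied more, from 692 CPM in replicate 2 of the 8-week females to 5667 CPM in replicate 3 of the 7-week females, a ratio of 8.19 and a CV of 36.4%. Its CV was 34.4% without those 5 libraries, with a ratio of 3.09. The values of miR-26b-5p fell in a lower range of 1832 to 2482 CPM in library set 1 and in a higher one of 3348 to 5380 CPM in set 2, which is made up of 6-week males.

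**Figure D1:**
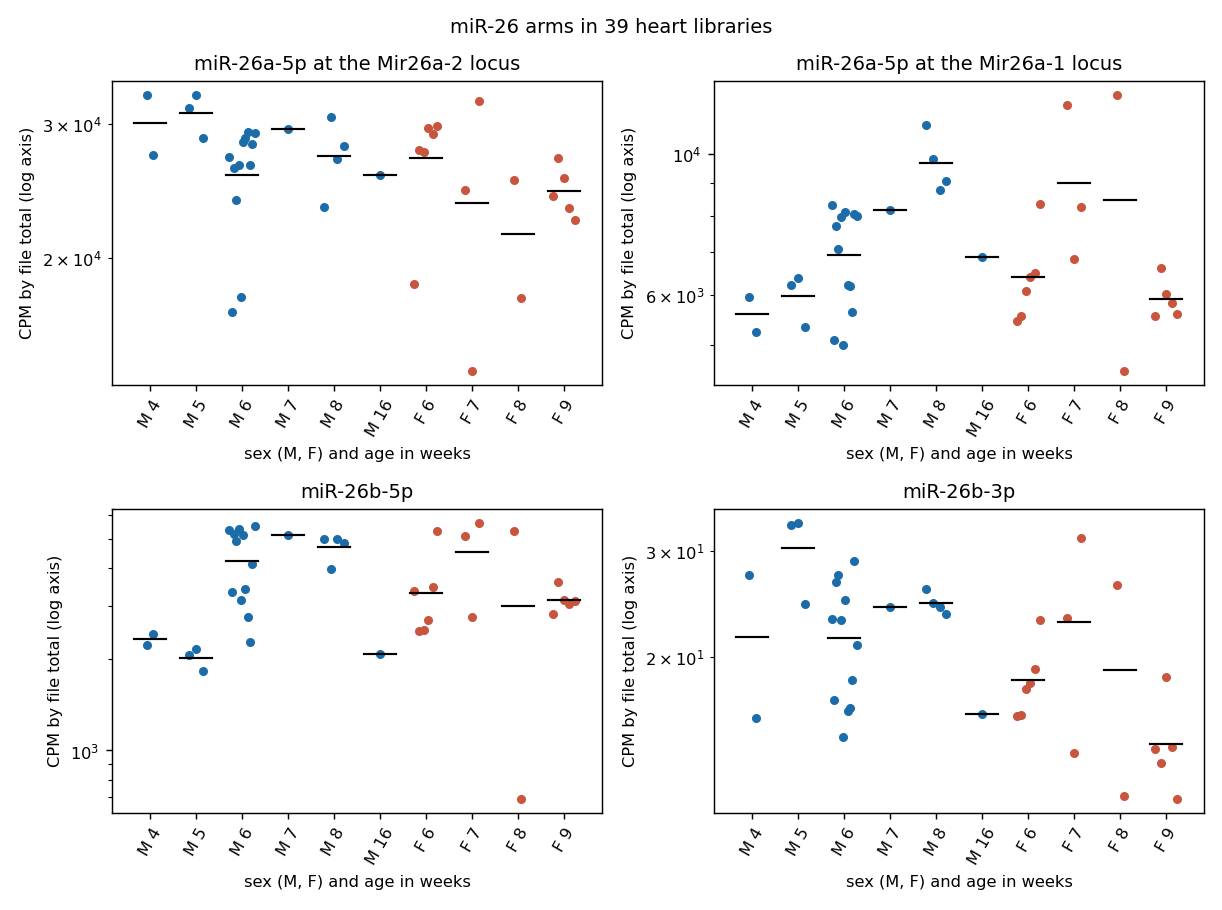
CPM by file total of 4 miR-26 arms on log axes, 1 point per library (blue, male; red, female), by sex and age in weeks, with a line at the group mean. miR-26b-5p lay at 1832 to 2430 CPM in the 5 males of 4 and 5 weeks and at 3991 to 5008 CPM in the 4 males of 8 weeks, and the low point at 692 CPM is replicate 2 of the 8-week females.

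Whether the sexes differ was asked at 6 weeks, the age with the most libraries of both. The family's arms did not pass the test. miR-26a-5p summed over its loci ran from 22137 CPM through a median of 34753 to 37146 in the 12 males, and from 23960 through 34665 to 38122 in the 6 females, so the groups overlapped almost completely. miR-26b-5p ran from 2275 through 4536 to 5510 CPM in males and from 2482 through 3033 to 5311 CPM in females. The female median lay below the male one, within the male range. miR-26b-3p ran from 14.7 through 22.0 to 28.9 CPM in males and from 16.0 through 17.9 to 23.1 CPM in females.

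In edgeR's quasi-likelihood test with Benjamini-Hochberg adjustment over 339 arms, 0 arms were called (0% of those tested), and 0 of the 4 tested miR-26 arms. An unadjusted p under 0.05 was found for 25 arms, none of them a miR-26 arm, and DESeq2 also called 0 arms, with 31 unadjusted. Without the 3 libraries of 6 weeks dominated by 1 arm (n = 15), edgeR called 0 of 338 arms, with 39 unadjusted. Female minus male, miR-26b-5p differed by -0.28 ± 0.18 on the log2 scale (SE; 95% interval -0.66 to 0.10; edgeR adjusted p = 0.478). miR-26b-3p differed by -0.16 ± 0.11 and the miR-26a-5p sum by 0.08 ± 0.06, with an interval of -0.05 to 0.22. With the library set as a term the difference of miR-26b-5p was 0.05 (edgeR adjusted p = 0.977). It was 0.11 within set 3 (4 male and 2 female libraries) and 0.0002 within set 4 (3 and 3). A p that misses the threshold does not show that the sexes are alike.

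The division of counts within the family does not depend on how libraries are scaled. miR-26b made up 11.4 ± 2.54% of miR-26-5p counts in 6-week males (SD, n = 12) and 9.04 ± 2.63% in 6-week females (n = 6), a difference of -2.39 percentage points (two-sided exact permutation test over 18564 regroupings, p = 0.0783). The Mir26a-1 share of miR-26a-5p counts was 21.3 ± 2.29% and 19.2 ± 2.48%, with an exact p of 0.0915. The 3p share of all miR-26 counts was 0.0692 ± 0.0118% and 0.0595 ± 0.00748%, with an exact p of 0.0873. The Mir26a-1 share of miR-26a-3p counts had an exact p of 0.501 on few counts. Adjusted over these 4 shares the values were 0.122 for the first 3 and 0.501 for the last. Counting error was small beside these differences for the 5p shares: the widest 95% Wilson interval of a library spanned 0.792 percentage points for the Mir26a-1 share and 0.366 for the miR-26b share.

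Within library sets the sexes differed less in the miR-26b share, the Mir26a-1 share of miR-26a-5p and the 3p share, by their values. The Mir26a-1 share of miR-26a-3p, on few counts, differed more. It differed by -9.00 percentage points within sets (exact permutation p = 0.12) and by -3.84 over all 6-week libraries. In set 4 the miR-26b share was 8.90%, 7.23% and 6.61% in the 3 males and 6.91%, 6.95% and 8.88% in the 3 females. In set 3 it was 12.1%, 12.4%, 10.2% and 12.9% in the 4 males of 6 weeks and 12.3% and 12.2% in the 2 females. The sexes overlapped in both sets, and the sets did not overlap with each other. Averaged over these sets, the female minus male difference within a set was 0.176 percentage points for the miR-26b share (two-sided exact permutation within sets, 300 regroupings, p = 0.83). The Mir26a-1 share averaged 21.9% in males and 22.4% in females of set 3, and 17.6% and 18.03% in set 4. Its difference within sets was 0.415 percentage points (exact p = 0.0567), opposite in sign to the difference over all 6-week libraries. Among the 18 libraries of 6 weeks 92.2% of the variance of the miR-26b share lay between sets and 17.8% between sexes. For the Mir26a-1 share 98.4% lay between sets and 16.1% between sexes. For the log2 CPM of the miR-26a-5p sum 8.21% lay between sets and 0.542% between sexes. These percentages are not adjusted for the number of groups, which is larger for the sets (4 at this age) than for the sexes.

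Over all 39 libraries the Mir26a-1 share took narrow ranges by set. It was 15.4 to 16.7% in set 1 (n = 6), 17.5 to 18.2% in set 4 (n = 6) and 18.7 to 20.01% in set 7 (n = 5). It was 20.4 to 22.8% in set 3 (n = 8), 22.7 to 23.4% in set 2 (n = 5) and 20.4 to 24.5% in set 6 (n = 5). Set 5 (n = 4), with 1 male and 3 female libraries of 7 and 8 weeks, stood highest at 32.2 to 32.8%. The sets were made from the same kind of measure on other sequences, so this is a description and not a test, and miR-26a itself was not used to make them. The Mir26a-1 and Mir26a-2 5p arms are identical, so these shares record how counts were divided between 2 loci, whether by transcription or by the assignment of reads, which cannot be told apart here.

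**Figure D2:**
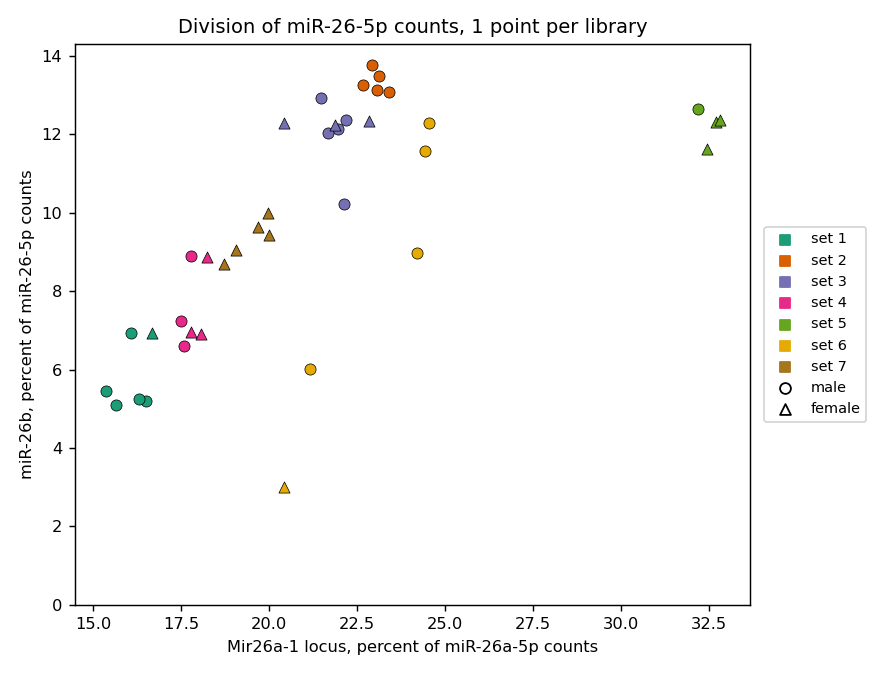
miR-26b share of miR-26-5p counts against the Mir26a-1 share of miR-26a-5p counts, both in percent, 1 point per library, coloured by library set (circles, male; triangles, female). Set 1 lies at 15.4 to 16.7% on the horizontal axis and set 5 at 32.2 to 32.8%, while the vertical axis spans 3.01 to 13.8%.

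Age was asked in males from 4 to 8 weeks (22 libraries), as a log2 slope per week. miR-26b-5p and the Mir26a-1 row of miR-26a-5p rose, the Mir26a-2 row fell, and the sum of miR-26a-5p did not pass the test. miR-26b-5p measured 2230 and 2430 CPM at 4 weeks, 2065, 2163 and 1832 CPM at 5 weeks, and 2275 to 5510 CPM with a median of 4536 at 6 weeks. It was 5158 CPM in the library of 7 weeks and 4992, 3991, 5008 and 4857 CPM at 8 weeks. The youngest 5 libraries were low, 1 library of 6 weeks (2275 CPM) lay among them, and the 8-week libraries did not overlap with the youngest. In edgeR's test 121 of 346 arms were called in either direction (35% of those tested), 47 higher (13.6%) and 74 lower (21.4%). With library totals in place of the TMM factors 61 were higher and 35 lower. Among the 4 tested miR-26 arms 2 rose and 1 fell, so a call here is common among all arms.

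The slope of miR-26b-5p was 0.23 ± 0.07 log2 per week (SE; edgeR adjusted p = 0.0112), which is 1.89-fold over 4 weeks. The Mir26a-1 row was 5949 and 5243 CPM at 4 weeks, 5002 to 8303 CPM with a median of 7397 at 6 weeks, and 11096, 9806, 8779 and 9077 CPM at 8 weeks. The 8-week libraries lay above all younger male ones. Its slope was 0.14 ± 0.03 (edgeR adjusted p = 0.00161), or 1.48-fold over 4 weeks. The Mir26a-2 row was 32771 and 27366 CPM at 4 weeks, 17029 to 29258 CPM with a median of 26844 at 6 weeks, and 23386, 30690, 26989 and 28065 CPM at 8 weeks, with all ages overlapping. Its slope was -0.11 ± 0.04 (edgeR adjusted p = 0.0415). That call was lost when library totals replaced TMM factors (-0.04, edgeR adjusted p = 0.576), without a filter on low counts (-0.05, adjusted p = 0.61) and with a filter of 20 CPM (-0.09, adjusted p = 0.0807). It was also lost when any of 6 libraries was left out: replicate 1 of 4 weeks, replicates 2 and 3 of 5 weeks, and replicates 1, 3 and 4 of 8 weeks (edgeR adjusted p of 0.0522 to 0.0834).

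The sum of the miR-26a-5p rows changed by -0.02 ± 0.03 log2 per week (95% interval -0.09 to 0.04; edgeR adjusted p = 0.558), so the mature sequence itself had no called slope. miR-26b-3p measured 27.5 and 15.9 CPM at 4 weeks, 33.2, 33.5 and 24.6 CPM at 5 weeks, and 23.6 to 25.9 CPM at 8 weeks. Its slope was -0.08 ± 0.06 and was not called (edgeR adjusted p = 0.282). The library of 16 weeks, given as a value only, had 32590 CPM of miR-26a-5p and 2090 CPM of miR-26b-5p, the latter within the range of the 4- and 5-week males.

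The male ages and the library sets overlap little. All 5 libraries of 4 and 5 weeks belong to set 1, which holds no other male library. This depends on the clustering. When the shares are standardised first, replicate 1 of the 5-week males and replicate 2 of the 6-week females join the libraries of set 4, which include 6-week males. No set holds males of both 6 and 8 weeks: the 8-week males lie in sets 5 and 6, those of 6 weeks in sets 2, 3 and 4. The female library of set 1, replicate 2 of 6 weeks, had 2482 CPM of miR-26b-5p. Its miR-26b share was 6.93% and its Mir26a-1 share 16.7%. With the set as a term the slope of miR-26b-5p was -0.07 (edgeR adjusted p = 0.874) and that of the Mir26a-1 row 0.10 (adjusted p = 0.799), and 0 of 346 arms were called. Only set 1 (4 and 5 weeks) and set 3 (6 and 7 weeks) hold fitted males of more than 1 age. The 8-week libraries thus do not inform these slopes, and this fit cannot decide between age and set. Over 6 to 8 weeks alone miR-26b-5p had a slope of 0.06 (edgeR adjusted p = 0.679), whereas the Mir26a-1 row kept a called slope of 0.21 (adjusted p = 0.00328). Within set 1, between 4 and 5 weeks, the slope of miR-26b-5p was -0.15 (edgeR adjusted p = 0.708). Age and set cannot be told apart for the rise of miR-26b-5p between 5 and 6 weeks. The same holds for the slope of the Mir26a-1 row, also over 6 to 8 weeks alone. White blood cell markers (6 sense arms of miR-142a, miR-150 and miR-223, none at 0 in all libraries) also moved with age and set. Their sum rested on miR-150 and miR-223, since the sense rows of miR-142a held at most 2 counts in a library and its counts were deposited in antisense rows. They took 0.0475 to 0.0635% of counts in males of 4 and 5 weeks, 0.0492 to 0.151% at 6 weeks and 0.129 to 0.175% at 8 weeks. Between the males of 4 and 5 weeks and those of 8 weeks, heart muscle markers took 7.66 to 9.78% and 10.5 to 11.5% of counts, endothelial markers 2.90 to 4.14% and 4.53 to 5.17%, and smooth muscle markers 10.6 to 13.2% and 8.74 to 9.46%, also without overlap. Fibroblast markers (0.550 to 0.766% and 0.735 to 0.863%) and red blood cell markers (5.85 to 7.17% and 3.79 to 6.69%) overlapped. The red blood cell values cover sense rows alone and leave out an antisense row named for miR-486. That row took 22.5% of counts in replicate 2 of the 8-week females, so the red blood cell values are partial. The part of these markers in the miR-26 slopes was not tested. In bulk tissue fewer cells of a type and less RNA per cell cannot be told apart.

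**Figure D3:**
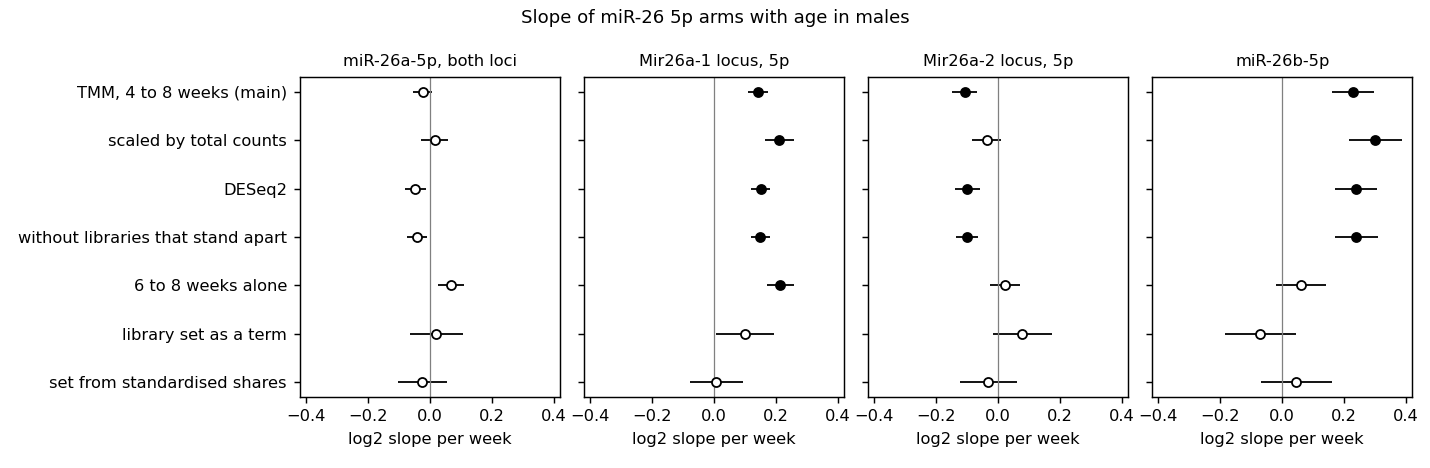
Log2 slope per week with age in males (point) and its SE (bar) for 4 miR-26 5p measures under 7 settings, filled where the adjusted p was under 0.05. The miR-26a-5p sum is open in all 7, and miR-26b-5p is filled in the upper 4 and open, between -0.07 and 0.06, in the lower 3.

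The shares within the family were compared between ages by exact permutation tests added after the values had been seen, 9 in all, with adjustment over the 9. The miR-26b share was 5.58 ± 0.768% in the 5 males of 4 and 5 weeks and 11.4 ± 2.54% in the 12 of 6 weeks (exact p = 0.000323, adjusted 0.00145). The ranges, 5.10 to 6.94% and 6.61 to 13.8%, overlapped through 1 library of 6 weeks, at 6.61%. The Mir26a-1 share was 16.0 ± 0.473% and 21.3 ± 2.29% (exact p = 0.000162, adjusted 0.00145), with no overlap, and it was higher in 12 of 12 libraries of 6 weeks than in any younger one. From 6 to 8 weeks the Mir26a-1 share was 21.3 ± 2.29% and 26.3 ± 3.89% (n = 4; exact p = 0.00275, adjusted 0.00618). Without replicate 1 of the 8-week males, at 32.2% and in set 5, that difference was 3.09 percentage points with an exact p of 0.0505. The miR-26b share did not pass between 6 and 8 weeks (11.4 and 11.4%, exact p = 0.96). Between females of 6 and 9 weeks neither share passed (exact p of 0.829 and 0.84). These regroupings ignore the library sets, and the male ages compared here share none of the 7 sets used. With sets from standardised shares, replicate 1 of the 5-week males shares a set with replicates 8, 9 and 10 of the 6-week males. Over all 39 libraries 97.2% of the variance of the Mir26a-1 share and 77.8% of that of the miR-26b share lay between sets. Age and set therefore cannot be told apart for these differences.

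The balance of the arms of Mir26b differed between the youngest males and those of 6 weeks. The 3p arm made up 1.22 and 0.648% of miR-26b counts at 4 weeks, and 1.58, 1.53 and 1.32% at 5 weeks. It made up 0.379 to 0.800% at 6 weeks, with a median of 0.493%, and 0.482 to 0.612% at 8 weeks. Of the 5 youngest libraries 4 lay above all of those of 6 weeks, and replicate 2 of the 4-week males lay among them. The means were 1.26 ± 0.372% (n = 5) and 0.526 ± 0.120% (n = 12), with an exact p of 0.000485 and an adjusted p of 0.00145. Leaving out any library left the difference between -0.885 and -0.652 percentage points. Over 4 to 8 weeks the slope of miR-26b-5p was called and that of miR-26b-3p was not. All 5 of the youngest males belong to set 1, so age and set cannot be told apart for this difference either. The 6-week female library of set 1 had a 3p share of miR-26b of 0.642%, within the range of the 6-week males. The widest Wilson interval for this share spanned 1.44 percentage points, in a library with 1259 miR-26b counts.

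**Figure D4:**
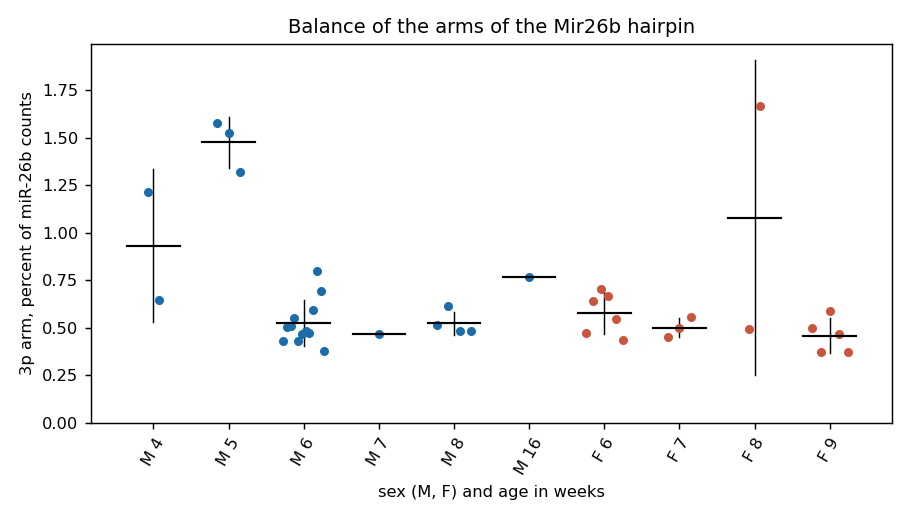
Share of the 3p arm in all counts of the Mir26b hairpin, in percent, 1 point per library (blue, male; red, female), with the group mean and SD. Of the 5 males of 4 and 5 weeks 4 lie at 1.22 to 1.58%, the 6-week males at 0.379 to 0.800%, and the female point at 1.67% is the library of 8 weeks with the lowest total.

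In females age was asked from 6 to 9 weeks (16 libraries), and none of the miR-26 arms was called by edgeR. miR-26a-5p summed over its loci was 23960 to 38122 CPM at 6 weeks and 28035 to 33675 CPM at 9 weeks, with a slope of 0.04 ± 0.03 log2 per week (edgeR adjusted p = 0.643). DESeq2 called this slope at 0.06 (adjusted p = 0.0153). miR-26b-5p was 2482 to 5311 CPM at 6 weeks, 5134, 2772 and 5667 CPM at 7 weeks, 5325 and 692 CPM at 8 weeks, and 2826 to 3594 CPM at 9 weeks. The ages overlapped, and the slope was 0.03 ± 0.10 (edgeR adjusted p = 0.963). Of 331 arms 10 were called in either direction (3.02% of those tested), 1 higher (0.302%) and 9 lower (2.72%), and 0 of the 4 miR-26 arms. All 5 libraries of 9 weeks form set 7, which holds no other library.

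Whether the slopes of the sexes differ was asked over the ages both have, 6 to 8 weeks (28 libraries), as a sex by age term. Of 346 arms 7 were called (2.02% of those tested), 6 higher (1.73%) and 1 lower (0.289%), and 0 of the 4 miR-26 arms. The term for miR-26b-5p, female minus male, was -0.02 ± 0.23 log2 per week (95% interval -0.49 to 0.44; edgeR adjusted p = 0.958). It rested on the pair of 8-week females, at 5325 and 692 CPM: it was -0.28 without replicate 1 and 0.34 without replicate 2, neither called. With the library set as a term it was -0.54 and was called (edgeR adjusted p = 0.0349), in a fit that called 94 arms. Without the 5 libraries that stood apart it was 0.39 and not called. The term for the miR-26a-5p sum was -0.07 ± 0.07 (edgeR adjusted p = 0.588).

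The arms most like each 5p member were ranked by Spearman's rho of log2 CPM over the 39 libraries, which share library totals and sets, as a description. For the miR-26a-5p sum they were let-7g-5p (0.78), let-7d-5p (0.76), miR-338-3p (0.75), let-7c-5p of the Mirlet7c-2 row (0.75) and miR-26b-3p (0.74), of 233 arms. With TMM scaling 0 of these 5 remained among the first 5. For miR-26b-5p they were miR-190a-5p (0.89), miR-101a-3p (0.89), miR-22-5p (0.88), miR-30b-5p (0.87) and miR-133a-1-5p (0.87), of 234 arms. With TMM scaling 4 of these 5 remained among the first 5, led by miR-30b-5p at 0.90.

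Relations among the members were taken as deviations from the set means, since libraries fell into sets. The miR-26a-5p sum and miR-26b-5p had a Pearson r of 0.77 and a Spearman rho of 0.74 over 39 libraries (permutation p = 1e-05 for both, the smallest the resamples can give). Adjusted over 6 pairs these were 3e-05 and 6e-05. The r was 0.75 without the 2 libraries farthest from the median of the sum. The relation did not hold with TMM scaling, where r was -0.24 and rho -0.03 (permutation p = 0.491 and 0.863). With file totals all arms share the denominator of the library. Within sets by file total the r was -0.28 in set 1 (n = 6), 0.94 in set 3 (n = 8) and 0.69 in set 4 (n = 6). For the arms of Mir26b, 5p and 3p, rho was 0.44 by file total and -0.21 with TMM scaling (permutation p = 0.0123 and 0.213).

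A pair of lists was set beside the family: miRNAs known to restrain growth of the postnatal heart, and repressors of Ezh2 other than miR-26. Of the growth list, 36 of 41 sense arms were tested. In males 11 of the 36 rose and 2 fell with age, beside 13.6% of all arms higher and 21.4% lower. Called in either direction were 13 of 36, a share near the 35% of all arms. Slopes above 0 numbered 22 of 36, and the median slope was 0.05 log2 per week against -0.003 over all arms. Arms of the miR-29 hairpins, whose 3p arms repress collagen genes, made up 6 of the 11: miR-29b-1-3p had a slope of 0.84, miR-29a-5p 0.38, miR-29c-3p 0.37, miR-29a-3p 0.36, miR-29b-2-3p 0.35 and miR-29c-5p 0.22. At 6 weeks, over both sexes, miR-29b-1-3p averaged 5.01 CPM, near the filter of 5 CPM, and miR-29a-5p and miR-29c-5p 16.2 and 18.5 CPM. The averages of miR-29b-2-3p, miR-29c-3p and miR-29a-3p were 74.0, 538 and 2109 CPM. In the miR-15 and miR-16 family, which restrains the cell cycle, miR-16-1-5p (0.72), miR-16-2-5p (0.19) and miR-15a-5p (0.12) rose, whereas miR-15a-3p fell by 0.38. The other tested 5p arms of that family, miR-15b-5p (-0.12, edgeR adjusted p = 0.225) and miR-195-5p (-0.03, adjusted p = 0.66), were not called. let-7a-1-5p (0.35) and let-7i-3p (0.21) rose and let-7i-5p fell by 0.09 per week. The most abundant member, let-7f-2-5p, had a slope of -0.10 and was not called (edgeR adjusted p = 0.124). The rows of miR-16, miR-29b, let-7a, let-7c and let-7f each divide 1 mature sequence between loci. Among these, miR-16, let-7c and let-7f, with the let-7f-2-5p row, were used to make the sets. With the set as a term 0 arms of either list were called, as 0 of all arms were. Of the Ezh2 repressors 7 of 12 arms were tested and 0 were called in any of the 4 comparisons, in which 0%, 35%, 3.02% and 2.02% of all arms were called (sex at 6 weeks, males, females, sex by age). In males 5 of the 7 slopes were above 0 with a median of 0.16, led in abundance by miR-101a-3p (0.24 ± 0.10, edgeR adjusted p = 0.0699) and miR-101b-3p (0.15 ± 0.07, adjusted p = 0.122). In females the growth list had 0 called and a median slope of 0.01 against -0.008 over all arms. The Ezh2 repressors had a median of -0.08 there. At 6 weeks both lists had 0 called between the sexes. For the sex by age term 1 arm of the growth list, let-7d-3p, was called (0.75).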

How the data were processed

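The authors deposited whole-number counts per miRNA arm, 1 file per library. Per the labels' protocols, total RNA was ligated to 3' and 5' adapters with the TruSeq small RNA kit, reverse transcribed, amplified and size-selected. The submitters' processing notes name GRCm38, DESeq and edgeR, with no role. The aligner and the rule for multi-locus reads: not given in the sources used here. Male files listed 1545 features and female files 1451; a feature not listed was taken as 0. Antisense rows of the family (at most 1 count in a library) were left out.

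Tests used edgeR 4.0.16 in R 4.3.3 (quasi-likelihood F-test, TMM factors) on arms with 5 CPM or more in at least 5 fitted libraries, fitted on the whole table, with Benjamini-Hochberg adjustment over all arms tested and a threshold of 0.05. The SE is the log2 value divided by the square root of F. For the sum, the 2 miR-26a-5p rows were replaced by their sum. Shares were tested by two-sided exact permutation in Python 3.11.15 (within sets, on the set differences weighted by the product of the numbers of males and females over their sum), and relations on log2(CPM + 1) with 100000 resamples. The fits were tested on simulated data. Wilson intervals and floors of 3 counts cover counting error only, since reads carry no molecular identifiers. No 2 libraries of a group agreed within sampling noise (the closest of 105 pairs had a chi-square of 17.0 per degree of freedom).

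The members and lists were chosen with earlier results of these data known. Named arms were the members, the 5 arms most like miR-26a-5p and miR-26b-5p with a mean of 20 CPM or more, and the called and 2 most abundant arms of each list. The uncalled 5p arms of the miR-15 and miR-16 family were added later. Sets came from Ward clustering of logit shares of 15 copy pairs, cut at 7. Of 2 clusterings tried, the unscaled one was kept, and standardised shares, which move replicate 1 of the 5-week males and replicate 2 of the 6-week females to the libraries of set 4, are an alternative. Relations had been planned over pooled libraries and are given as deviations from set means. Alternatives were total scaling, DESeq2 1.42.0, no filter, a filter of 20 CPM, leaving out each library, replicate numbers as a block, sets as a term, and 6 to 8 weeks alone. Those added after seeing the data were the standardised sets, fits within sets, the weighting of share differences over sets, fits without the 5 libraries that stood apart, and the age tests of shares.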

Additional observations from a re-analysis of the deposited data

Results flagged for a closer look

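Within groups of 4 to 10 libraries, 6 of 27 combinations of group and measure held a library far from the others by Dixon's criterion, which flags about 1 in 20 groups by chance. The measures overlap, as the sum holds the Mir26a-2 row, and 1 library can be flagged more than once. The 6 flags are therefore not independent and cannot be set against that rate. In the 6-week females, replicate 1 was low in miR-26a-5p, with 23960 CPM for the sum (next 33340) and 18490 CPM for the Mir26a-2 row (next 27580). It is a library with over 40% of counts in miR-143-3p. Replicate 6 of the same group was high, with 8337 CPM in the Mir26a-1 row (next 6507) and 5311 CPM of miR-26b-5p (next 3476), and belongs to set 3 as replicate 1 does. In the 8-week males, replicate 1 had 32.18% of miR-26a-5p counts in the Mir26a-1 row (next 24.54%) and is the male library of set 5. Replicate 2 of that group was low in miR-26b-5p at 3991 CPM (next 4857).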

How the results depend on the processing

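Limits: no labels give a batch, and in the library sets used all males of 4 and 5 weeks fall in 1 set and the 9-week females in another. Rows of the Mir26a loci depend on the assignment of shared reads. Depth limits miR-26a-1-3p and miR-26a-2-3p, which were not tested. The causes of the changes below were not tested. All slopes and differences are log2 values.

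With the library set as a term, sex differences at 6 weeks turned sign for the Mir26a-1 row (0.0636), miR-26b-3p (0.0298) and miR-26b-5p (0.0496), with standardised sets 0.0362, 0.00667 and 0.0170. Within set 3 the Mir26a-1 row was at 0.0956 and miR-26b-5p at 0.114, and within set 4 they were at 0.0416 and 0.000204, with miR-26b-3p at 0.0744. Male slopes with the set as a term were 0.0781 (Mir26a-2 row), 0.33 (miR-26b-3p), -0.0706 (miR-26b-5p, 0.0458 with standardised sets) and 0.0211 (sum). Over 6 to 8 weeks they were 0.022, 0.0759, 0.0598 and 0.0686, and within set 1 0.10, 0.56, -0.15 and 0.11. The male slope of the sum was 0.0153 with total scaling and 0.000417 without a filter. Female slopes with total scaling were -0.0372 (Mir26a-1 row), -0.0526 (Mir26a-2 row), -0.0532 (miR-26b-5p) and -0.0496 (sum, 0.0555 and called with DESeq2). Over 6 to 8 weeks they were -0.10 for the Mir26a-2 row, 0.13 for miR-26b-3p and -0.0179 for the sum, and miR-26b-3p was at 0.31 with either set term. The sex by age term with sets was -0.0971 (standardised -0.0831) for the Mir26a-1 row, 0.0113 (0.0165) for the Mir26a-2 row, -0.0643 (-0.0502) for miR-26b-3p and -0.54 (-0.52, both called) for miR-26b-5p. It was -0.00401 for miR-26b-3p with total scaling and 0.39 for miR-26b-5p without the libraries that stood apart.

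Counts of arms called moved as follows. At 6 weeks 1 was called with standardised sets. In males 38 were called over 6 to 8 weeks and 0 with either set term or within set 1. In females 48 were called with DESeq2, 1 without a filter, 16 with 20 CPM, 0 with either set term, 16 over 6 to 8 weeks and 82 without the libraries that stood apart. For sex by age 0 were called with total scaling, 25 with DESeq2, 1 without a filter, 94 and 97 with the set terms and 0 without the libraries that stood apart.

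Leaving out each library gave 0 to 75 called arms in females (75 without replicate 2 of 8 weeks) and 1 to 89 for sex by age (89 without replicate 1 of the 8-week females). It gave -0.000324 to 0.0582 for the female slope of miR-26b-5p and -0.28 to 0.34 for its sex by age term. At 6 weeks it gave, in percentage points, -2.78 to -1.55 for the Mir26a-1 share (exact p 0.0419 without replicate 1 of the females), -3.05 to -1.96 for the miR-26b share (exact p of 0.0326 to 0.0414 without male replicates 9 or 10 or female replicates 1 or 6) and -0.0116 to -0.00759 for the 3p share (exact p 0.0369 without male replicate 8). Within library sets the sex difference turned sign, to 0.415 for the Mir26a-1 share and 0.176 for the miR-26b share. The difference of medians of the miR-26b share was -4.73 (exact p = 0.0242). Leaving out each library gave, from 6 to 8 weeks in males, 3.09 to 5.74 for the Mir26a-1 share, -0.50 to 0.74 for the miR-26b share and -0.0316 to 0.0228 for the 3p share of miR-26b. From 6 to 9 weeks in females it gave -0.268 to 0.959, -0.106 to 0.982 and -0.152 to -0.0940.

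Replicate numbers of 6-week males and females did not pair the libraries: same-number correlations ran from -0.374 to 0.326, and 0 of 6 were best with their own number. With the replicate block 2 arms were called at 6 weeks, 95 in males, 0 in females and 0 for sex by age. For the shares the block kept only male replicates 1 to 6, of which 1 to 5 form set 2, beside the 6 females. On these fewer males the difference in the Mir26a-1 share was -3.61 percentage points (exact p = 0.0312). In the fits on all libraries the block gave 0.0180 for the sex by age term of miR-26b-5p. It gave -0.09 for the male slope of the Mir26a-2 row (edgeR adjusted p = 0.202).

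With TMM scaling rho was -0.0342 for the sum and miR-26b-5p, 0.39 and 0.32 for the sum with miR-26b-3p and miR-26a-2-3p, -0.21 and 0.0148 for miR-26b-5p with them, and 0.32 between the 3p arms. Without the libraries dominated by 1 arm the last 3 were 0.0384, -0.0014 and 0.38, and without the 2 farthest libraries miR-26b-5p had 0.31 and 0.36.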
